A study of Homo sapiens with 5 samples.

Results

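The voltage-gated calcium channel alpha-1 genes are the 10 genes CACNA1A, CACNA1B, CACNA1C, CACNA1D, CACNA1E, CACNA1F, CACNA1G, CACNA1H, CACNA1I and CACNA1S. They were examined for peaks of steroidogenic factor-1 (SF-1, the nuclear receptor encoded by NR5A1) whose centre fell inside the gene body or within 100 kb of either end, a stretch called the window below. All 10 were matched among the 20163 protein-coding genes of the annotation, and their windows held 103 of the 30372 peaks in the data, at 86 of the 25693 distinct sites. A distinct site is a stretch covered by overlapping peaks of any of the 4 lists.

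SF-1 binding was mapped by chromatin immunoprecipitation and sequencing in H295R/TR SF-1 cells, a single subclone of the H295R adrenocortical tumor cell line in which doxycycline switches on extra SF-1. Cells grown in the absence of doxycycline gave the basal SF-1 chromatin and cells given it for 3 days the overexpressed SF-1 chromatin, and each dosage was precipitated with a Millipore and with a Perseus antibody against SF-1. Every combination comprised 3 libraries from which a single peak list was made, and 2 input DNA libraries, which carried no antibody and have no peak list, served as the control. The basal Millipore list held 4393 peaks, the overexpressed Millipore list 11910, the basal Perseus list 6616 and the overexpressed Perseus list 7453. The 4 lists have no replicates, so no p-value was computed between them, and the intervals below are 95% intervals for counting error over peaks only. The lists hold no expression values, so the rise in SF-1 and the cell identity were not checked here. The read depth behind each list is unknown, and peaks were ordered by a rank, with 1 the best, that has meaning within its own list.

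An alpha-1 subunit forms the pore and the voltage sensor of a calcium channel, and it sets the type of current that the channel carries. CACNA1C, CACNA1D, CACNA1F and CACNA1S encode the pores of L-type channels. CACNA1A (P/Q-type), CACNA1B (N-type) and CACNA1E (R-type) act mainly in neurons, where they trigger transmitter release. CACNA1G, CACNA1H and CACNA1I encode T-type pores, which open near the resting potential. In the adrenal cortex, calcium entry through T-type and L-type channels, with CACNA1H and CACNA1D the best known genes, drives aldosterone synthesis in cells of the zona glomerulosa. SF-1 binds DNA as a monomer, and NRSF/REST is a repressor that silences neuronal genes, several ion channel genes among them.

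The sequences that carry the main results at CACNA1H are given first. All are from the plus strand of GRCh37 (hg19). Capitals mark the SF-1 consensus, which is the core CAAGGNC, with N a pyrimidine, preceded by a pyrimidine and followed by a purine, searched on both strands. A match on the minus strand is seen as its reverse complement. The first stretch is the only CACNA1H site found in more than 1 list, the next is the other CACNA1H site with a consensus, and the last, which has none, is the peak nearest to the CACNA1H start.
CACNA1H upstream site of 3 lists, chr16:1187601-1187799: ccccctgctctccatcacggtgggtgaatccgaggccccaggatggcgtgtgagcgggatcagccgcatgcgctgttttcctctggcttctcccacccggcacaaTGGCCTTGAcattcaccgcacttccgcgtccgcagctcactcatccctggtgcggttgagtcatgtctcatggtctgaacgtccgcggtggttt
CACNA1H intron 2 site with a consensus, chr16:1233951-1234049: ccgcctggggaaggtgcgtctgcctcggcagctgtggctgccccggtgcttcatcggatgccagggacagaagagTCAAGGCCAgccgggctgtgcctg
CACNA1H intron 2 site nearest to the start, chr16:1204601-1204749: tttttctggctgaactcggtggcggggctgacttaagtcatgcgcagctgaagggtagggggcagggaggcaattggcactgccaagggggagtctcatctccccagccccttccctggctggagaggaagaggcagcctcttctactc

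The next sequences are the sites of the other channels that were found in 3 or 4 lists. With them are the best-ranked channel peak in an intron of CACNA1D and the only other channel site with a match to the NRSF/REST consensus. Capitals mark matches to that consensus, the parts TTCAGCACC and GGACAGCGC, separated by 2 free bases and with a final C, in which at most 4 of the 19 fixed positions were allowed to differ. The CACNA1C stretch is 300 bases around the matches within the longer site chr12:2861651-2862449. It overlaps an exon of the pseudogene IQSEC3P1.
CACNA1C downstream site of 4 lists, chr12:2861832-2862131: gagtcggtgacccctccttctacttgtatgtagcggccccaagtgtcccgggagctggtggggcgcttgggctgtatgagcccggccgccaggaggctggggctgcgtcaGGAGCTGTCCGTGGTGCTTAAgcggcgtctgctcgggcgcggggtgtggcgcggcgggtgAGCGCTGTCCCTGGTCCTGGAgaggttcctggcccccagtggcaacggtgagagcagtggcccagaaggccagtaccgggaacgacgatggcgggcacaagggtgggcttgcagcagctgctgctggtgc
CACNA1D intron 3 site of 4 lists, chr3:53557851-53558049: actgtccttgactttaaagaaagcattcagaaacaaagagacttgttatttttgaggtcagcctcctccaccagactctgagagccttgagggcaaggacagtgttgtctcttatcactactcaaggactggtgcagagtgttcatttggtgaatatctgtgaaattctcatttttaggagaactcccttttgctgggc
CACNA1B downstream site of 3 lists, chr9:141044751-141044999: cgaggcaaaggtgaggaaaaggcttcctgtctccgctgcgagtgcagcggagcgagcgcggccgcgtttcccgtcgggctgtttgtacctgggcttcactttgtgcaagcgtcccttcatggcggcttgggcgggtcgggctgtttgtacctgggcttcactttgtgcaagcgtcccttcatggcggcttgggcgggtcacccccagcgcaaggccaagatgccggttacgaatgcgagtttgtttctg
CACNA1D intron 3 site with the rank 111, chr3:53676351-53676599: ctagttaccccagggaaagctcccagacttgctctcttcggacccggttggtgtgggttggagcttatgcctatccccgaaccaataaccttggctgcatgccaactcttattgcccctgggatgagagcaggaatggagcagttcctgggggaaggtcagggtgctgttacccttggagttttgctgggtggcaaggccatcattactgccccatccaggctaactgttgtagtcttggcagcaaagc
CACNA1I upstream site, chr22:39941901-39942049: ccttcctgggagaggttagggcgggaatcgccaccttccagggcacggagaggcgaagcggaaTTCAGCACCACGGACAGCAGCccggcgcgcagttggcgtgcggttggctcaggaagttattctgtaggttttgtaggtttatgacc
The CACNA1B stretch holds an exact repeat of 62 bases in 2 copies, at bases 73 and 135, which adjoin each other. Reads within such a repeat can map to either copy.

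The last set shows the CACNA1D sites with the form TCAAGGTCA of the SF-1 consensus that lay in the upstream flank and were found with both antibodies, or lay in intron 3. Capitals again mark the match.
CACNA1D upstream site of 2 lists, in TKT, chr3:53264169-53264468: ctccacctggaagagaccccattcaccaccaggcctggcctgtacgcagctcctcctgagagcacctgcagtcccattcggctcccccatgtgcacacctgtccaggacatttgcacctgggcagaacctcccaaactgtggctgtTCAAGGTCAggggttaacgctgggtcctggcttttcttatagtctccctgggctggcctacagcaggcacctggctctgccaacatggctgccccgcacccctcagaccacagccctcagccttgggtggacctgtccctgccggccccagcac
CACNA1D intron 3 site, basal Perseus, chr3:53598651-53598849: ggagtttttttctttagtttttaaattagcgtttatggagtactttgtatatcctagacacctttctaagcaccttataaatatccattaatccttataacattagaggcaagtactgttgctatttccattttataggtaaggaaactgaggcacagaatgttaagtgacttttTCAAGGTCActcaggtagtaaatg
CACNA1D intron 3 site, overexpressed Millipore, chr3:53619701-53619849: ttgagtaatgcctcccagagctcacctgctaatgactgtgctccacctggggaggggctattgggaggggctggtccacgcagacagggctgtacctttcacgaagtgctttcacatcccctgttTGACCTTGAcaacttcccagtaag

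CACNA1H, the T-type gene on chromosome 16 (ENSG00000196557.13, chr16:1203106-1271771, plus strand), had 2 peaks with the Millipore antibody before SF-1 was raised and 4 after. With the Perseus antibody it had 1 and 4. These 11 peaks formed 9 distinct sites, of which 4 lay in the gene body and 5 in the flanks. The site at chr16:1187601-1187799 was the only one present in several lists. It lay 15406 bp upstream of the CACNA1H start, in no annotated gene, and its rank was 1238 (basal Millipore), 8163 (overexpressed Millipore) and 6659 (overexpressed Perseus). No basal Perseus peak overlapped it. The consensus match TCAAGGCCA on the minus strand lay within all 3 of these peaks, 10 bp from the centre of the site.

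The 4 sites in the gene body were all in intron 2, and each came from a single list. The nearest to the start, chr16:1204601-1204749, had rank 8064 in the overexpressed Millipore list. Its centre was 1569 bp downstream of the start, and 937 bp downstream of that of another protein-coding CACNA1H transcript. Farther into the intron, 28144 bp from the start, chr16:1231201-1231299 had rank 4536 in the overexpressed Perseus list. At 30894 bp, chr16:1233951-1234049 had rank 10411 in the overexpressed Millipore list and held the letters TCAAGGCCA on the plus strand, the same form as the upstream site. The peak chr16:1234851-1234949, with rank 6315 in the basal Perseus list, followed at 31794 bp. The last 2 of these did not overlap, and no intron 2 site was found with both antibodies or at both dosages.

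The other 4 CACNA1H sites lay at neighbouring genes. The peak chr16:1122401-1122599, with rank 9555 in the overexpressed Millipore list, was 247 bp upstream of the start of SSTR5, a somatostatin receptor gene. The basal Millipore peak chr16:1127151-1127249, with rank 4338, was inside SSTR5. The other 2 were overexpressed Perseus peaks in the downstream flank. Thus 5 of the 9 sites remained at CACNA1H when sites inside, or within 1 kb of the start of, another protein-coding gene were left out. The map of the CACNA1H window shows these positions.

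**Figure D1:**
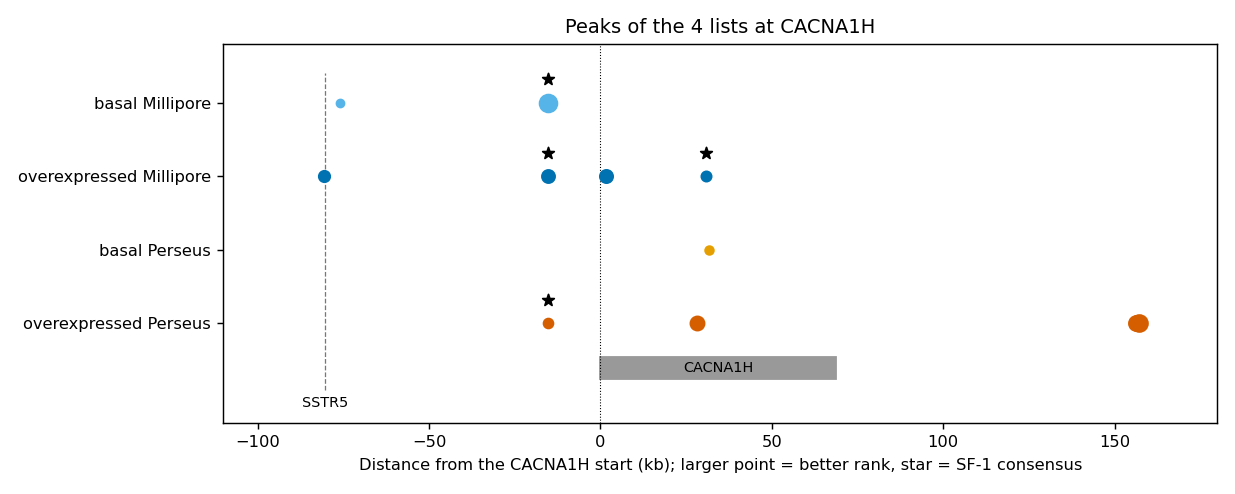
Peaks of the 4 lists at CACNA1H by distance from its start (kb, horizontal axis), 1 row for each list, with the grey bar the gene body and the dashed line the start of SSTR5. Larger points have a better rank in their list and stars mark an SF-1 consensus; the peaks of 3 lists line up 15406 bp upstream of the start.

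None of the 11 CACNA1H peaks ranked in the best 25% of its list, and 2 of the 11 ranked in the better 50%. Among the 92 peaks of the other 9 channels, 32 (34.8%) ranked in the best 25% and 59 in the better 50%. The 4 overexpressed Millipore peaks of CACNA1H lay between 67.7% and 87.4% of the way down that list, where the median of the 50 peaks of the other channels lay at 31.6%. In the overexpressed Perseus list the 4 CACNA1H peaks lay between 37.1% and 89.3%, and the median of the other 18 was 39.8%. CACNA1H shared this with other channels, since CACNA1A, CACNA1F and CACNA1I also had no peak in the best 25% of a list. The median overexpressed Millipore peak lay at 79.7% for CACNA1A, 72.6% for CACNA1I and 74.4% for CACNA1H. Of the 32 peaks in the best 25%, CACNA1C held 9 and CACNA1D 10. The best-ranked basal Perseus channel peak was that of CACNA1G, with rank 344, and the plot of ranks gives every peak. With 1 list in each group these ranks have no replicate error, and peaks at the same site are not independent.

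**Figure D2:**
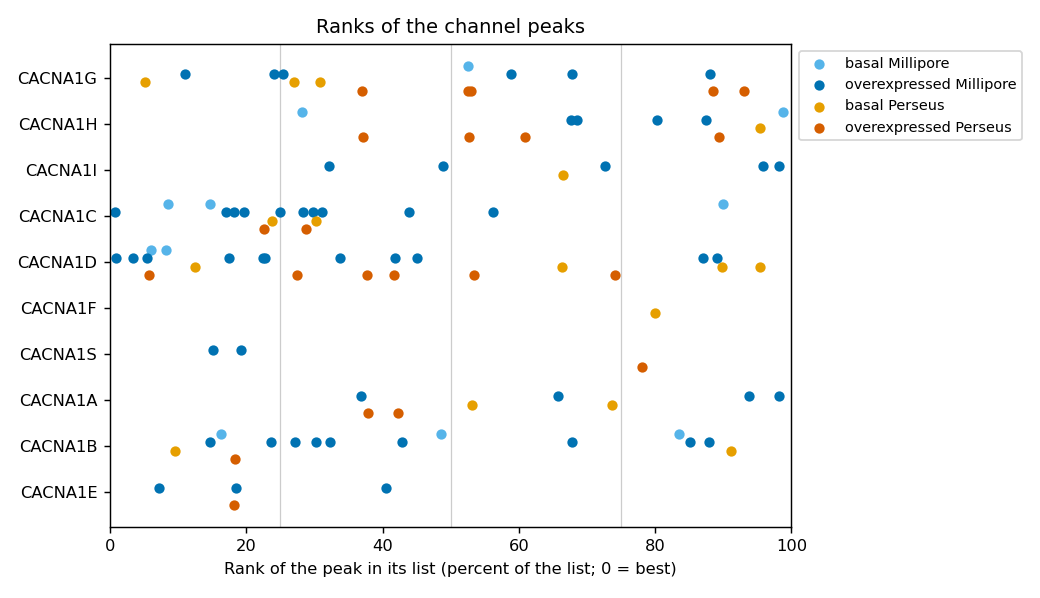
Rank of every channel peak as a percent of its list (horizontal axis, 0 the best), 1 row of points for each channel and list. The CACNA1H points begin at 28.2%, whereas CACNA1C and CACNA1D have points below 1%.

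Per 100 kb of window, CACNA1H had 0.744 basal Millipore peaks (95% exact Poisson interval 0.0902 to 2.69) against 0.201 over the other 9 channels. The ratio was 3.70, with an exact conditional interval of 0.389 to 17.9. In the overexpressed Millipore list the densities were 1.49 and 1.12 per 100 kb, a ratio of 1.33 (0.349 to 3.62). The basal Perseus list gave 0.372 and 0.336 per 100 kb, a ratio of 1.11 (0.0263 to 7.21), and the overexpressed Perseus list 1.49 and 0.403 per 100 kb, a ratio of 3.70 (0.910 to 11.2). For distinct sites the densities were 3.35 and 1.72 per 100 kb, a ratio of 1.94 (0.857 to 3.89). All 5 ratios were above 1 and all 5 intervals included 1, so a difference between CACNA1H and the other channels was not detectable with these counts. The upper bound of each interval was above 3. In order of density among the 10 channels, CACNA1H was number 1 for basal Millipore, number 5 for overexpressed Millipore and basal Perseus, and number 2 for overexpressed Perseus peaks and for distinct sites.

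Under some other settings the ratio for distinct sites was below 1, whereas the overexpressed Perseus ratio was above 1 in all 13 that were run. Counted per protein-coding start in the window, CACNA1H had 9 sites for 8 starts (1.125 per start) and the other channels 77 sites for 51 starts (1.51 per start), a ratio of 0.745 (0.328 to 1.49). The same measure gave ratios of 1.417 for basal Millipore and for overexpressed Perseus peaks, 0.51 for overexpressed Millipore and 0.425 for basal Perseus peaks, all with intervals that included 1. Restricted to the better-ranked 50% of each list, the ratio for distinct sites was 0.665. Against CACNA1G and CACNA1I alone, the T-type genes, it was 1.03 (0.4115 to 2.395). The CACNA1H window had the highest G+C content of the 10, at 62.0%, against 42.9% to 52.7% in the others. The part of G+C content and gene density in these ratios was not tested. The plot of ratios gives the main values with their intervals and each alternative.

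**Figure D3:**
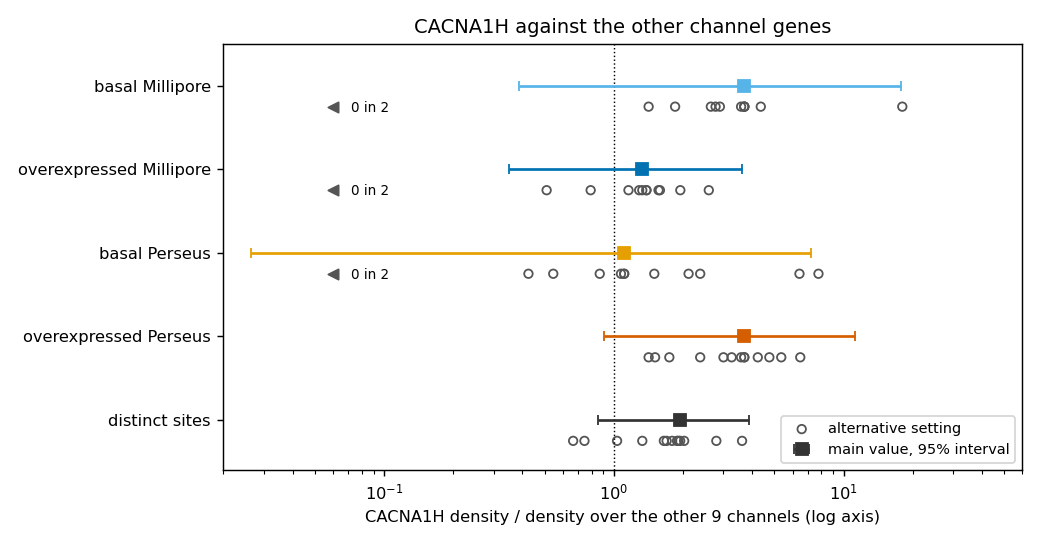
Ratio of CACNA1H peak density to that of the other 9 channels (log axis) in the 4 lists and for distinct sites. Squares with bars are the main values with exact conditional 95% intervals, open circles are alternative settings, and triangles mark alternatives in which CACNA1H had 0 peaks; all 5 bars cross 1.

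Gene length was also taken into account by splitting the protein-coding genes by window length into 10 groups of equal size and comparing each channel with the genes of its own group. The CACNA1H window of 268.7 kb was in group 8 from the shortest, whose genes had a mean of 0.472 basal Millipore, 1.84 overexpressed Millipore, 1.06 basal Perseus and 1.24 overexpressed Perseus peaks. At least as many peaks as at CACNA1H were found in 10.02%, 15.1%, 54.7% and 8.38% of those genes, respectively. The 3 protein-coding genes whose densities in the 4 lists were most like those of CACNA1H, by Euclidean distance over the 4 lists, were MTMR14 at a distance of 0.141, SLAMF8 at 0.247 and SPEN at 0.252, in units of peaks per 100 kb. MTMR14 had the same 4 counts as CACNA1H.

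CACNA1G, a T-type gene of almost equal window length (266.8 kb, chromosome 17), had 1, 6, 3 and 5 peaks in the basal Millipore, overexpressed Millipore, basal Perseus and overexpressed Perseus lists. Its 13 distinct sites, 4.87 per 100 kb (2.59 to 8.33), gave the highest density of the 10 channels. Relative to the other 9 channels the ratio was 2.98 (1.52 to 5.43) for distinct sites and 4.93 (1.42 to 13.9) in the overexpressed Perseus list. Both intervals excluded 1, but they make no allowance for the comparison of 10 channels. Per protein-coding start in its window CACNA1G had 1.44 sites. By that measure CACNA1B, CACNA1C, CACNA1D and CACNA1E had more and the rest had fewer, in a range of 0.0769 to 13. Of the 13 CACNA1G sites 9 lay in, or within 1 kb of the start of, another protein-coding gene. All 5 overexpressed Perseus peaks and all 3 basal Perseus peaks were among them. Examples are chr17:48785051-48785449, 25 bp from the start of ANKRD40, with ranks 344 in the basal and 3917 in the overexpressed Perseus list, and chr17:48611251-48611399, in EPN3, with ranks 2038 and 6591. The gene body itself held 3 sites, all in intron 9 and all from the Millipore antibody, the best of them chr17:48659901-48660199 with rank 1318 in the overexpressed list. Of the 13 sites, only chr17:48720851-48721099 in ABCC3, with rank 2866 in the overexpressed Millipore list, held an SF-1 consensus. Bases outside the sites were not searched.

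CACNA1I, the other T-type gene, had 0, 5, 1 and 0 peaks in the same order of lists, with 6 distinct sites in 319.0 kb. Its overexpressed Millipore peak chr22:39941901-39942049, with rank 8645 and 24783 bp upstream of the start, held a NRSF/REST match with 2 mismatches, whose centre was 1 bp from that of the peak. The remaining sites included 4 in introns 1 and 6. In intron 1, a basal Perseus peak at chr22:39988851-39988949 with rank 4399 lay between a pair of overexpressed Millipore peaks without overlapping either.

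Grouped by current, the 3 T-type genes had 28 distinct sites, or 3.28 per 100 kb (2.18 to 4.74). The 4 L-type genes had 35, or 1.66 per 100 kb (1.15 to 2.30), and the 3 genes of N, P/Q and R type had 23, or 1.30 per 100 kb (0.824 to 1.95). Against the other 7 channels the T-type ratio was 2.19 (1.35 to 3.50) for distinct sites and 3.15 (1.19 to 7.95) in the overexpressed Perseus list, whereas the intervals of the remaining 3 lists included 1. These intervals make no allowance for the number of comparisons. Without CACNA1G the ratio for distinct sites was 1.71 (0.899 to 3.05) and that in the overexpressed Perseus list 2.03 (0.483 to 6.58), and both intervals then included 1. Per protein-coding start CACNA1G, CACNA1H and CACNA1I had 1.44, 1.125 and 1.2 sites. The other 7 channels ranged from 0.0769 to 13, which is too wide to place the T-type genes. CACNA1B, CACNA1C, CACNA1D and CACNA1E had more sites per start than any T-type gene, and CACNA1F and CACNA1S had fewer. CACNA1A, at 1.17, lay between CACNA1H and CACNA1I. A T-type ratio per start was not computed. Another protein-coding gene lay at 9 of the 13 CACNA1G, 4 of the 9 CACNA1H and 1 of the 6 CACNA1I sites. The part of gene density in the T-type ratios was not tested.

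**Figure D4:**
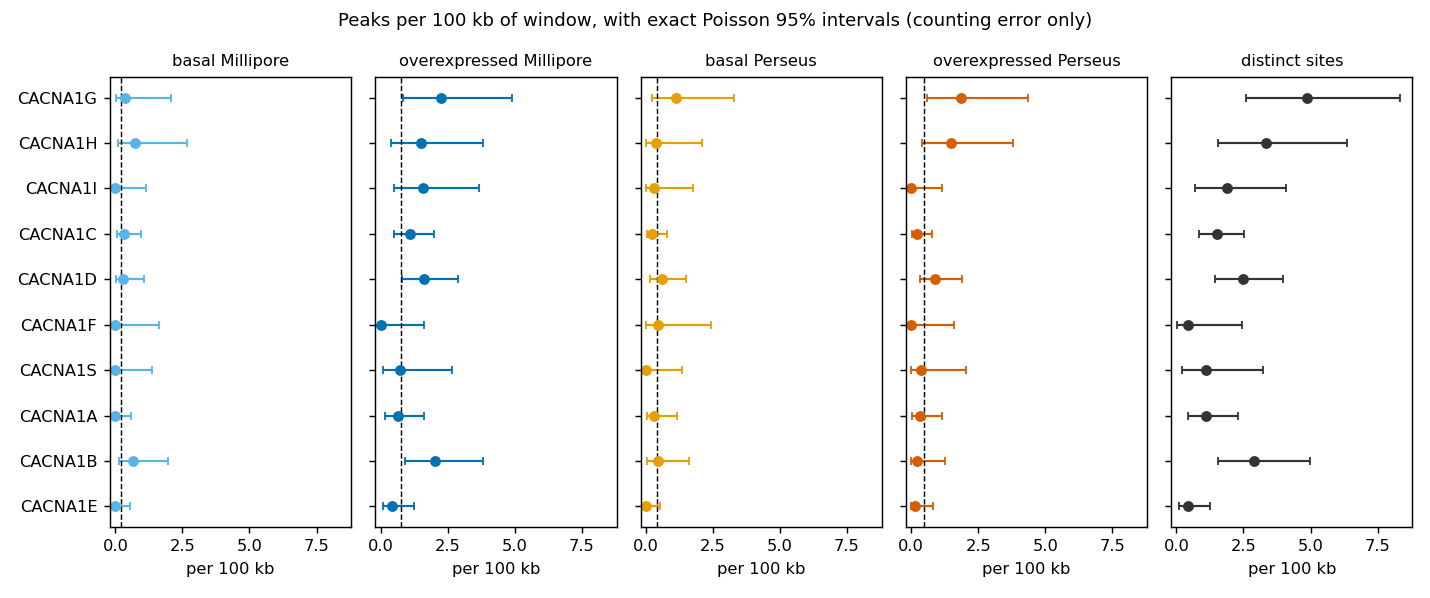
Peaks per 100 kb of window for the 10 channels in each list and for distinct sites (horizontal axes), with exact Poisson 95% intervals; dashed lines are the density over the windows of all protein-coding genes in that list. CACNA1G has the highest value for distinct sites, at 4.87 per 100 kb.

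CACNA1D, an L-type gene (chromosome 3, window 684.8 kb), had 2, 11, 4 and 6 peaks in the basal Millipore, overexpressed Millipore, basal Perseus and overexpressed Perseus lists and the most distinct sites, 17. It held 4 of the 11 channel sites found in several lists. The intron 3 site chr3:53557851-53558049, 29312 bp downstream of the start of the principal (MANE Select) transcript, was in all 4 lists, with ranks 363 (basal Millipore), 409 (overexpressed Millipore), 6306 (basal Perseus) and 5520 (overexpressed Perseus). Neither consensus was present there. Also in intron 3, chr3:53676351-53676599 was ranked 111 and 2047 with the Millipore and Perseus antibodies at overexpressed dosage. The site chr3:53264051-53264499, with ranks 642 and 428 in the 2 overexpressed lists, lay in TKT, the transketolase gene, 25793 bp from its start. The last, chr3:53381651-53381749, ranked 4389 (basal) and 3983 (overexpressed) with the Perseus antibody, was 87 bp from the start of DCP1A.

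Near the CACNA1D principal start itself, an overexpressed Perseus peak with rank 3104 at chr3:53528051-53528399 was centred 413 bp upstream, and an overexpressed Millipore peak with rank 2677 at chr3:53529151-53529649 was centred 762 bp downstream, in intron 1. They did not overlap, and neither was found at basal dosage. The best-ranked basal Millipore peak of any channel, with rank 266, was in intron 3 of CACNA1D at chr3:53593451-53593649 and in no other list. All 4 occurrences of the form TCAAGGTCA in the channel sites were in the CACNA1D window. They lay in the TKT site, in intron 3 at chr3:53598651-53598849 (basal Perseus, rank 5939) and chr3:53619701-53619849 (overexpressed Millipore, rank 4022), and in the upstream flank at chr3:53349251-53349449 (overexpressed Perseus, rank 2807).

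CACNA1C, the L-type gene of the heart and smooth muscle, had the longest window (927.2 kb, chromosome 12) and 3, 10, 2 and 2 peaks in the same order. Of its 14 sites 13 were in the gene body, and none of those was found in more than 1 list. The remaining site, chr12:2861651-2862449, was in all 4 lists, with ranks 644, 83, 1574 and 1687. It lay 54934 bp downstream of the gene, in the non-coding genes IQSEC3P1 and ITFG2-AS1, and its rank of 83 was the best of any channel peak. The site held NRSF/REST matches at chr12:2861942-2861962, with 2 mismatches, and at chr12:2862002-2862022, with 3 mismatches, both on the minus strand, and no SF-1 consensus. Peaks of both Millipore lists contained both matches, the basal Perseus peak contained 1 and the overexpressed Perseus peak neither. The CACNA1C sites that held an SF-1 consensus were chr12:2250301-2250499 and chr12:2435801-2435949. Both were in intron 3 and in the overexpressed Millipore list, with ranks 3700 and 2345.

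CACNA1F, the L-type gene of the retina, had 1 peak, with rank 5291 in the basal Perseus list at chrX:49028901-49028999, inside PLP2. CACNA1S, the L-type gene of skeletal muscle, had 2 overexpressed Millipore peaks and 1 overexpressed Perseus peak, none of them in the gene body. The Perseus peak, chr1:200958351-200958449 with rank 5813, held an SF-1 consensus inside KIF21B, a kinesin gene.

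CACNA1B, the N-type gene (chromosome 9, window 446.8 kb), had 3, 9, 2 and 1 peaks in the basal Millipore, overexpressed Millipore, basal Perseus and overexpressed Perseus lists. Of its 13 sites 9 were in the gene body, all from the Millipore antibody. The site with the repeat, chr9:141044751-141044999, lay downstream of the gene and had rank 635 in the basal Perseus, 1367 in the overexpressed Perseus and 5095 in the overexpressed Millipore list. No CACNA1B site held either consensus. The only protein-coding start in the window was that of CACNA1B itself, but 2 of the 13 sites, in the upstream flank, lay inside another protein-coding gene, EHMT1.

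CACNA1A, the P/Q-type gene (chromosome 19, window 626.6 kb), had 0, 4, 2 and 2 peaks. One overexpressed Millipore peak, chr19:13616901-13616999 with rank 11160, overlapped exon 1 and was centred 343 bp downstream of the principal start. All 4 Perseus peaks lay downstream in STX10 or NACC1, and the SF-1 consensus was present at 3 of the 7 sites. Among those was chr19:13260351-13260499 in STX10, shared by the overexpressed Millipore (rank 4381) and basal Perseus (rank 3510) lists. The other 2, both in NACC1, were chr19:13228801-13228899 (basal Perseus, rank 4869) and chr19:13229351-13229499 (overexpressed Perseus, rank 3152). CACNA1E, the R-type gene (chromosome 1, window 695.6 kb), had 0, 3, 0 and 1 peaks. Its 3 distinct sites, 0.431 per 100 kb, gave a ratio of 0.210 to the other channels (0.0424 to 0.635), an interval below 1. This was the lowest density of the 10 channels, and the interval makes no allowance for the comparison of 10 channels. The CACNA1E window held 1 protein-coding start, so per start it had 3 sites. One of these 3 sites, chr1:181424501-181424899, was found in both overexpressed lists with ranks 860 and 1360, in the gene body but 27953 bp upstream of the principal start.

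**Figure D5:**
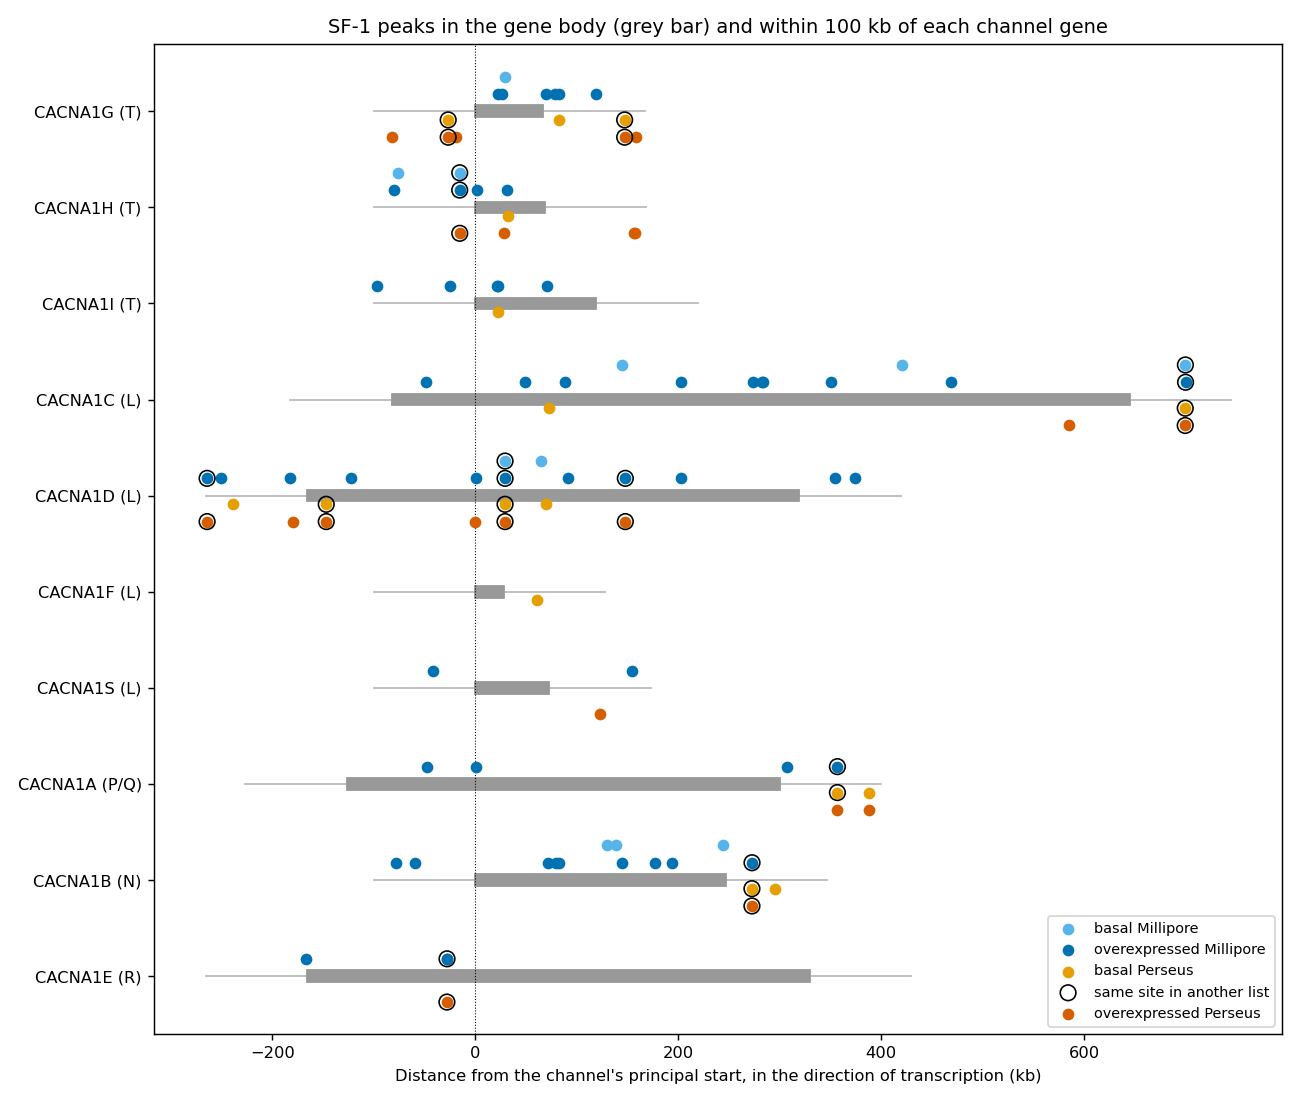
Position of all 103 peaks by distance from the principal start of their channel (kb, horizontal axis, positive in the direction of transcription), with the gene body as a grey bar, the window as a thin line and 1 colour for each list. Rings mark peaks at a site found in another list; the 2 sites of all 4 lists are in the CACNA1D body and downstream of CACNA1C.

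Of the 10 channels, 5 had at least 1 peak in the basal Millipore list, where 36.5% of all protein-coding genes did, and 9 had one in the overexpressed Millipore list, where 67.9% did. In the basal Perseus list 8 channels had a peak, with 52.6% of all genes, and in the overexpressed Perseus list 8, with 56.7%. The channels have long windows. Genes of the same length groups would give 4.25, 6.95, 5.35 and 5.59 channels with a peak, and 6.82, 19.4, 10.8 and 12.4 peaks, in the basal Millipore, overexpressed Millipore, basal Perseus and overexpressed Perseus lists. The counts found were 11 (exact Poisson interval 5.49 to 19.7), 54 (40.6 to 70.5), 16 (9.15 to 26.0) and 22 (13.8 to 33.3). Only the overexpressed Millipore and overexpressed Perseus intervals excluded the value from the length groups. Since 5 of the channels are in the longest group, whose genes vary widely in length, this comparison removes length only in part. In the overexpressed Perseus list the density pooled over the channel windows, 0.464 per 100 kb, was below the 0.497 over the windows of all genes. In the overexpressed Millipore list it was above, at 1.14 and 0.770 per 100 kb. No interval was computed for these pooled densities.

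Densities per 100 kb over the 10 windows had medians of 0.146, 1.28, 0.346 and 0.271 in the same order, and the medians over all protein-coding genes were 0, 0.466, 0.266 and 0.363. The channel median was therefore above that of all genes in 3 lists and below it in the overexpressed Perseus list. Pooled over the windows, the channels had 0.232, 1.14, 0.338 and 0.464 peaks per 100 kb, and all protein-coding genes had 0.201, 0.770, 0.420 and 0.497. By the pooled density the channels were above all genes in both Millipore lists and below them in both Perseus lists. No interval was computed for these differences. Windows of neighbouring genes overlap, so the value for all genes counts some peaks more than once. Over the whole chromosomes the lists had 0.142, 0.385, 0.214 and 0.241 peaks per 100 kb, below the pooled channel density in every list. For the Millipore antibody the windows held 11 basal and 54 overexpressed peaks, with a ratio of 4.91 (2.54 to 10.4). The whole list was 2.71-fold longer, and relative to it the channel ratio was 1.81 (0.936 to 3.84). For the Perseus antibody the counts were 16 and 22, a ratio of 1.375 (0.690 to 2.80), where the whole list was 1.13-fold longer, and the relative ratio was 1.22 (0.612 to 2.49). At CACNA1H the relative ratios were 0.738 (0.106 to 8.16) with Millipore and 3.55 (0.351 to 175) with Perseus. None of these relative intervals excluded 1.

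Channel peaks lay in gene bodies more often in the Millipore than in the Perseus lists, with overlapping intervals. In the Millipore lists 8 of 11 basal and 32 of 54 overexpressed peaks were in a channel gene body, and in the Perseus lists 6 of 16 and 7 of 22 were. The density ratio of body to flanks was 1.95 (0.468 to 11.4), 1.06 (0.599 to 1.92), 0.438 (0.131 to 1.33) and 0.341 (0.118 to 0.889) in the basal Millipore, overexpressed Millipore, basal Perseus and overexpressed Perseus lists. Over all protein-coding genes it was 0.820, 0.652, 0.648 and 0.642. Within 1 kb of the outermost start of a protein-coding gene lay 0 of 11, 3 of 54, 6 of 16 and 6 of 22 channel peaks, and 4.19%, 12.6%, 26.4% and 26.6% of the whole lists. A further 3 peaks lay within 1 kb of the principal start of a channel, which in CACNA1A and CACNA1D is not the outermost one. They were the overexpressed Millipore peaks of CACNA1A and CACNA1D and the overexpressed Perseus peak of CACNA1D described above. The overexpressed Millipore peak chr16:1204601-1204749 of CACNA1H lay within 1 kb of the start of a transcript other than the principal one.

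An overlap of 1 bp or more made a peak shared. Between dosages, 3 of the 11 basal and 3 of the 54 overexpressed Millipore channel peaks were shared, against 12.4% and 4.53% of the whole lists. With the Perseus antibody 6 of the 16 basal and 6 of the 22 overexpressed peaks were, against 29.5% and 26.2%. Between antibodies at basal dosage 2 of the 11 Millipore and 2 of the 16 Perseus peaks were shared, against 11.6% and 7.65%. At overexpressed dosage it was 7 of 54 and 7 of 22, against 11.5% and 18.5%. The Wilson interval of each of these 8 shares included the share of its whole list. By site, 75 of the 86 were in 1 list, 7 in 2, 2 in 3 and 2 in all 4. The 11 in several lists were 12.8% of the channel sites, and 13.8% of all sites in the genome were in several lists.

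The SF-1 consensus was present in 13 of the 86 distinct sites and the NRSF/REST consensus in 2. By list, 1 of 11, 8 of 54, 3 of 16 and 5 of 22 channel peaks held the SF-1 consensus, where the whole lists held it in 16.0%, 10.9%, 21.6% and 17.2% of peaks. Windows of the same length 5 kb to either side of the peaks held it in 1.22%, 1.69%, 1.38% and 1.30%. The NRSF/REST consensus was in 1 of 11, 2 of 54, 1 of 16 and 0 of 22 channel peaks, and in 1.12%, 0.739%, 0.181% and 0.268% of the whole lists. In the windows to either side it was in 0.0455%, 0.164%, 0.0907% and 0.0939%. Both consensus sites of CACNA1H read TCAAGGCCA, which was also the form at a CACNA1C intron 3 site and in the CACNA1G window inside ABCC3, a transporter gene. The match of letters is a description and does not show that SF-1 or NRSF/REST was bound there.

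Genes named as auxiliary subunits of calcium channels (alpha-2-delta, beta and gamma) numbered 16. Of these 5, 12, 8 and 10 had a peak in the basal Millipore, overexpressed Millipore, basal Perseus and overexpressed Perseus lists, where 36.5%, 67.9%, 52.6% and 56.7% of all protein-coding genes did. Together they had 0.148, 0.820, 0.262 and 0.344 peaks per 100 kb, where the alpha-1 genes had 0.232, 1.14, 0.338 and 0.464. These values sum peaks and window lengths gene by gene, so a peak within the windows of neighbouring genes was counted for each. Over the windows of all protein-coding genes the same measure was 0.201, 0.770, 0.420 and 0.497. CACNA2D2, an alpha-2-delta gene, had the most of any of them in the overexpressed Millipore list, with 19, and CACNB4, a beta subunit gene, had none in any list. Of 13 genes that act downstream of calcium entry or bear on it in adrenal cells, 7, 8, 9 and 10 had a peak, against the same 36.5%, 67.9%, 52.6% and 56.7% of all genes. CAMK2B, a calcium/calmodulin-dependent kinase gene, had 1, 15, 3 and 4 peaks, NR4A1, a nuclear receptor gene induced by angiotensin II, had 1, 5, 3 and 3, and REST itself had 0, 0, 1 and 0.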

How the data were processed

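The authors mapped the reads to hg19 (ELAND v2, CASAVA 1.6 per the submitters' processing notes) and called peaks with SeqPeak of CisGenome v2 against input, pooling the 3 libraries of each group. The deposited lists give position and rank. The ranked quantity is not given in the sources used here, and the deposited score column held the same value for every peak and was not used. Starts lie on a 50 bp grid. Windows and start sites came from GENCODE version 44 mapped to GRCh37. Densities were compared by exact conditional ratios and given exact Poisson intervals, and shares were given Wilson intervals, all for counting error only. The tools were Python 3.11.15, numpy 2.4.6, pandas 2.3.3, scipy 1.17.1 and pysam 0.24.0. Counting, overlap and motif steps were tested on simulated data.

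The members, the comparison of CACNA1H, the gene lists and the alternatives were chosen with earlier results of these data known. The peaks named are those of CACNA1H, except 2 whose position is not reported here, and, for the other channels, those in 2 or more lists, within 1 kb of a channel start, with a consensus or best in rank; the other CACNA1G and CACNA1I peaks given, with those of CACNA1F and CACNA1S, were added after their values were seen. The input libraries were not analysed here.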

Additional observations from a re-analysis of the deposited data

How the results depend on the processing

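No paired analysis was possible because each group is 1 list made from pooled libraries, which also means that no library could be left out. All 65 alternative CACNA1H ratios had intervals that included 1, and 55 of them fell within the main interval. The basal Millipore ratio was 0 in the gene body alone and with 10 kb on each side, and 18 within 100 kb of the outermost start (0.937 to 1062). The overexpressed Millipore and basal Perseus ratios were 0 in the better-ranked 50% and in lists of the shortest length, and the basal Perseus ratio was 7.77 in the gene body alone. For distinct sites the ratio was 0.665 in the better-ranked 50% and 0.745 per protein-coding start.

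Counts of peaks fell with narrower windows or shorter lists, as their construction implies. They are given in the order basal Millipore, overexpressed Millipore, basal Perseus, overexpressed Perseus and distinct sites, for those that changed by more than 1.5-fold. The gene body alone held 32, 6, 7 and 47 of all but the basal Millipore list, and 10 kb on each side gave 35, 6, 7 and 50. With 50 kb on each side the overexpressed Perseus count was 12. Within 100 kb of the outermost start there were 3, 27, 7, 8 and 40, and in the better-ranked 50% there were 7, 35, 7, 12 and 52. Lists of the shortest length gave 29 overexpressed Millipore peaks, 9 basal Perseus peaks and 54 sites. Without peaks at other protein-coding genes, an alternative added after the data were seen, 8 basal Perseus peaks, 9 overexpressed Perseus peaks and 54 sites were left.

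Channels with a peak numbered 4 in each Perseus list with the gene body alone or 10 kb on each side. Within 100 kb of the outermost start they numbered 2 for basal Millipore, 5 for basal Perseus and 3 for overexpressed Perseus. The basal Perseus number was 4 in the better-ranked 50% and 5 at the shortest length, and both Perseus numbers were 5 without peaks at other genes.

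Shared peaks with the Millipore antibody between dosages fell to 1 of the main 3 in the gene body or with 10 kb, and those with Perseus to 2 of 6 there and in the better-ranked 50%. Between antibodies at basal dosage 1 of 2 was left when 50% of the shorter peak had to overlap, in the better-ranked 50%, at the shortest length, in the gene body and with 10 kb. At overexpressed dosage 7 became 4 at the shortest length and 3 in the gene body or with 10 kb. Sites with the SF-1 consensus fell from 13 to 4 with the fixed form TCAAGGTCA, and the NRSF/REST count stayed within 1.5-fold of 2.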
